A study of Homo sapiens with 9 samples.

Results

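The oxaliplatin-resistant line MHCC97L-OXA was compared with its parental line MHCC97L by RNA sequencing, to ask which genes differ between them. Samples were chosen by the cell line and treatment in their labels, which gave 3 MHCC97L-OXA and 3 MHCC97L samples, 6 of the 9 samples of the series. Of the 20030 genes in the count table, 12064 passed a filter on low counts (edgeR's filterByExpr function with a minimum count of 10) and were tested. MHCC97L is a human hepatocellular carcinoma (HCC) cell line, and its 3 samples carry the treatment label none. MHCC97L-OXA was derived from it, carries the treatment label oxaliplatin and was stably resistant to the drug at 2 μmol/L. The labels do not say whether the drug was in the medium at harvest, whether the resistant line is a single clone, or how the 3 samples of a line were grown. The paper calls its comparison of MHCC97L with the saracatinib-resistant line independent experiments and names the oxaliplatin comparison beside it. The p-values measure a difference between lines against the spread between these samples. The authors deposited gene counts and FPKM, in which counts are scaled by transcript length and by library size. Reads counted on genes came to 17655465, 17750280 and 17978547 in MHCC97L replicates 1, 2 and 3, and to 18209213, 17921913 and 17768931 in MHCC97L-OXA replicates 1, 2 and 3.

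Oxaliplatin is a platinum drug whose adducts crosslink DNA bases, and cells survive them by excision repair, crosslink repair and bypass synthesis. Copper transporters, efflux pumps, metallothioneins and glutathione affect how much platinum reaches DNA, and the BCL2 family sets the threshold for apoptosis. HCC cells also use hypoxia-inducible factors (HIFs) for glycolysis and pH control, the ERK cascade for growth signals, and NRF2 for antioxidant enzymes.

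The GC content of genes set the MHCC97L samples apart from one another before any comparison of lines. The difference of each sample's log2 CPM (counts scaled to library size) from the 6-sample mean, its deviation, was compared with GC content across genes, which are not independent replicates. Spearman's rho was -0.782, 0.494 and -0.0662 in MHCC97L replicates 1, 2 and 3, and 0.514, 0.492 and 0.475 in MHCC97L-OXA replicates 1, 2 and 3. MHCC97L replicate 1 thus ran against the 3 resistant samples, and MHCC97L replicate 2 ran with them. In the 2401 genes with the lowest GC content (30.2% to 41.1%), the mean deviation was 1.47 in MHCC97L replicate 1, -0.69 in replicate 2 and 0.37 in replicate 3, against -0.56, -0.35 and -0.24 in MHCC97L-OXA. At the highest GC content (58.7% to 74.7%) it was -0.62, 0.05 and 0.08 in MHCC97L and 0.15, 0.15 and 0.18 in MHCC97L-OXA. Together, GC content and gene length took up 66.7%, 35.7% and 14.2% of the variance of this deviation in MHCC97L, and for 32.4%, 21.2% and 23.0% in MHCC97L-OXA. The log2 fold change between lines itself had a rho of 0.629 with GC content. GC-poor genes therefore tended to be lower, and GC-rich genes higher, in the resistant line before any correction.

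**Figure D1:**
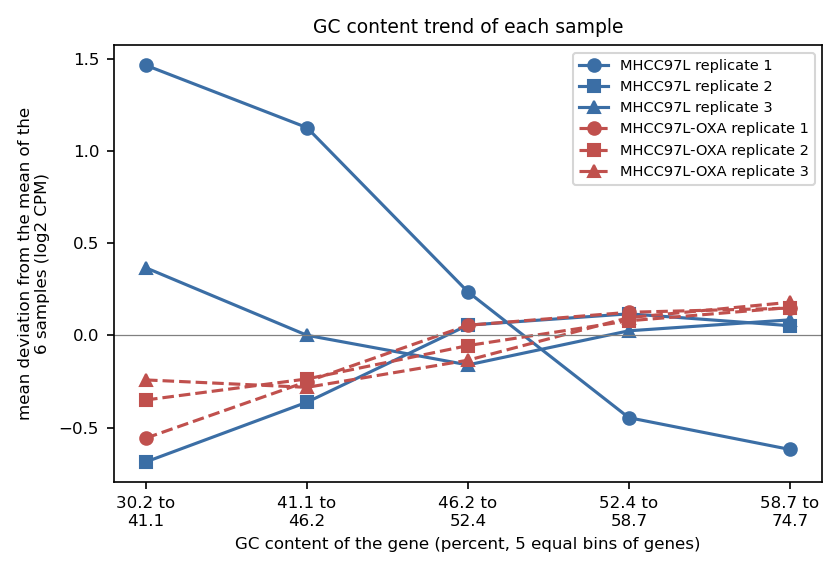
Mean deviation in log2 CPM of each sample (vertical axis) in 5 bins of genes ordered by GC content in percent (horizontal axis), 1 line per sample. MHCC97L replicate 1 runs from 1.47 in the GC-poorest bin to -0.62 in the GC-richest, while the 3 MHCC97L-OXA samples and MHCC97L replicate 2 are lower in the GC-poorest bin than in the GC-richest.

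The test was therefore run on the counts as deposited and again with a correction for each sample's trend with GC content and gene length, which left a rho of 0.0587 between log2 fold change and GC content. Genes were called at an adjusted p under 0.05 in edgeR's quasi-likelihood test, with p-values adjusted by the Benjamini-Hochberg method over all genes tested. Before correction, 115 of 12064 genes were called (0.953%), 93 higher (0.771%) and 22 lower (0.182%) in MHCC97L-OXA, and 2708 had an unadjusted p under 0.05. After correction, 1555 of 12004 genes were called (12.95%), 781 higher (6.51%) and 774 lower (6.45%). Both tests called 112 genes with the same sign (0.933%), 91 higher and 21 lower. An exact permutation test on a single gene with 3 samples against 3 cannot give a p below 0.1, so the calls rest on the spread that edgeR shares across genes. Over all tested genes, log2 fold changes had a median of -0.19 before and -0.08 after correction. Median GC content was 49.1% over all tested genes, 55.7% over the corrected rises and 57.2% over the corrected falls, so the genes called were GC-rich in either direction. Whether GC content has a part in which genes were called was not tested beyond the correction. From here on, log2 fold changes are MHCC97L-OXA over MHCC97L and are printed as the log2 value ± its standard error (SE), fold changes and adjusted p are those after correction unless called uncorrected, and rose or fell is written only of genes past that threshold. The uncorrected log2 fold change had the other sign in GPX4, which fell, and in ABCC1, AHR, BAX, GSK3B, MCL1, MYBL2, NOTCH1, PCNA, RELA, SLC31A1, SNAI1, TNFRSF1A and WWTR1, which did not pass. Uncorrected values stand beside called genes whose log2 value moved by over 1.5 times, a rule that was not applied to fold changes.

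How many genes were called depended on single samples. Without MHCC97L replicate 3, or without any 1 MHCC97L-OXA sample, the uncorrected test called 2 genes, CA9 and CASP14, against 2251 without MHCC97L replicate 1 and 2705 without MHCC97L replicate 2. The uncorrected call of every other gene named here was thus lost in those 4 fits. After correction, 8.75% of genes were higher and 10.97% lower without MHCC97L replicate 1, 10.5% and 10.5% without MHCC97L replicate 2, and 4.00% and 3.72% without MHCC97L replicate 3. Without MHCC97L-OXA replicate 1 the shares were 1.59% and 0.814%, without MHCC97L-OXA replicate 2 they were 1.14% and 0.527%, and without MHCC97L-OXA replicate 3 they were 1.62% and 0.788%. Of the 112 genes called in both tests, 87 (73 higher and 14 lower) were called after correction in each of the 6 fits without 1 sample. For each gene group below, numbers over these 6 fits are given in the order of the sample left out, MHCC97L replicates 1, 2 and 3 and then MHCC97L-OXA replicates 1, 2 and 3. Calls in each group stand against the shares over all tested genes. With all 6 samples these were 0.771% higher and 0.182% lower before correction, and 6.51% higher and 6.45% lower after it.

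**Figure D2:**
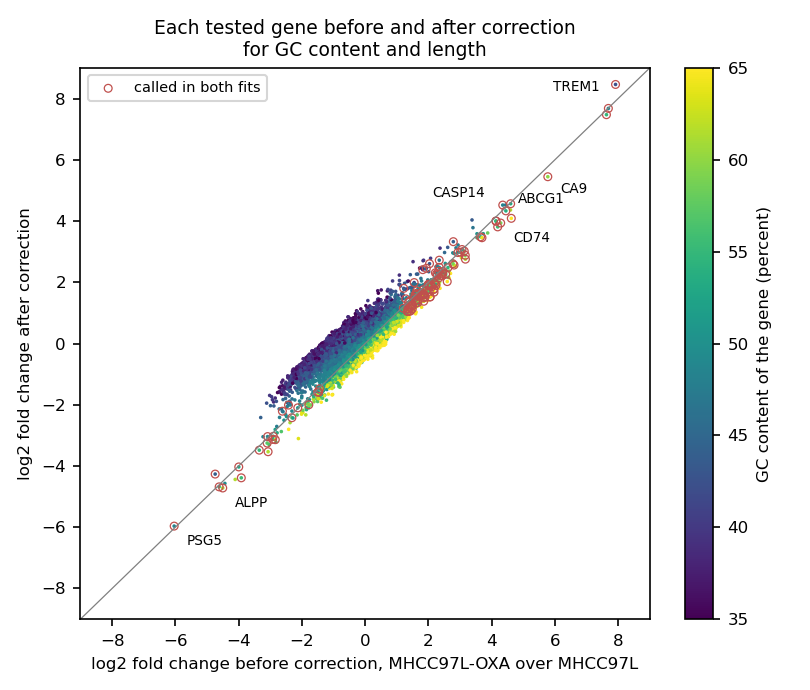
Log2 fold change of each tested gene (MHCC97L-OXA over MHCC97L) before correction for GC content and length (horizontal axis) and after it (vertical axis), colored by GC content, with the 112 genes called in both tests circled. The 91 rises and 21 falls called in both lie near the diagonal, with TREM1, CA9, CASP14 and CD74 among the rises and PSG5 and ALPP among the falls.

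Genes with large changes are given first, and others with changes as large are named with their lists below. CA9, a carbonic anhydrase of the cell surface and a classical HIF target, had 111, 201 and 214 counts in parental and 9994, 9157 and 10023 in resistant samples (log2 5.45 ± 0.12, adjusted p = 1.22e-05), a 43.7-fold rise. CASP14, a caspase of cornifying skin cells, had 210, 121 and 119 counts in parental and 3625, 2849 and 2620 in resistant samples (log2 4.52 ± 0.14, adjusted p = 7.6e-05). In both genes every resistant sample lay far above every parental sample. CEMIP, which binds and breaks down hyaluronan, had 13, 11 and 9 counts in parental and 279, 320 and 210 in resistant samples (log2 4.57 ± 0.28, adjusted p = 0.00105). TREM1, a myeloid receptor that amplifies inflammatory signals, had 0, 0 and 1 counts in parental and 131, 96 and 105 in resistant samples, a ratio of 333 (59.3 to 13183), where the range is an exact 95% counting interval that covers counting error only. TREM1 was thus all but absent from the parental samples and moderate in every resistant one, with an adjusted p of 0.00158. WDR86, a WD-repeat protein, had 6, 5 and 2 counts in parental and 119, 85 and 123 in resistant samples (log2 4.09 ± 0.46, adjusted p = 0.00466), and S100A9, a subunit of calprotectin, had 15, 13 and 12 counts in parental and 238, 248 and 250 in resistant samples (log2 3.81 ± 0.33, adjusted p = 0.00256). Their groups did not overlap, and MHCC97L was low in all 3 samples. CA9, CASP14, CEMIP, TREM1, WDR86 and S100A9 kept the corrected call in each fit without 1 sample.

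Among the falls, ALPP, the placental alkaline phosphatase, had 415, 617 and 884 counts in parental and 29, 31 and 25 in resistant samples (log2 -4.72 ± 0.23, adjusted p = 0.00105), 26.3-fold lower. PSG5, a pregnancy-specific glycoprotein, had 43, 26 and 22 counts in parental and 0, 0 and 1 in resistant samples, a ratio of MHCC97L to MHCC97L-OXA of 90.8 (15.9 to 3625). SLC12A3, the sodium-chloride cotransporter, had 24, 34 and 24 counts in parental and 1, 0 and 2 in resistant samples, a ratio of 27.3 (9.01 to 135). These genes were low in every resistant sample, and the intervals again cover counting error only. PDZK1, a scaffold that anchors transporters at the membrane, had 51, 15 and 26 counts in parental and 1, 0 and 2 in resistant samples, a ratio of 30.6 (10.1 to 151). Adjusted p was 0.00424 for PSG5, 0.00642 for SLC12A3 and 0.00865 for PDZK1, each lower in 3 of 3 resistant samples than in any parental one. LRRC15, a leucine-rich repeat membrane protein, had 37, 46 and 34 counts in parental and 2, 1 and 4 in resistant samples (log2 -4.03 ± 0.45, adjusted p = 0.00443). TAGLN, an actin-binding protein of smooth muscle, had 645, 1047 and 1280 counts in parental and 134, 100 and 116 in resistant samples (log2 -3.25 ± 0.21, adjusted p = 0.00105), and KANK4, of a family that links adhesions to microtubules, had 274, 241 and 202 counts in parental and 29, 24 and 17 in resistant samples (log2 -3.48 ± 0.30, adjusted p = 0.00251). ASTL and CPA4, both proteases, fell by 3.53 and 3.04 on the log2 scale, with adjusted p of 0.0111 and 0.0136. ALPP, PSG5, LRRC15, TAGLN and KANK4 kept the corrected call in each fit without 1 sample. SLC12A3, PDZK1, ASTL and CPA4 lost it without 1 or more of MHCC97L-OXA replicates 1, 2 and 3 (adjusted p from 0.0505 to 0.069).

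**Figure D3:**
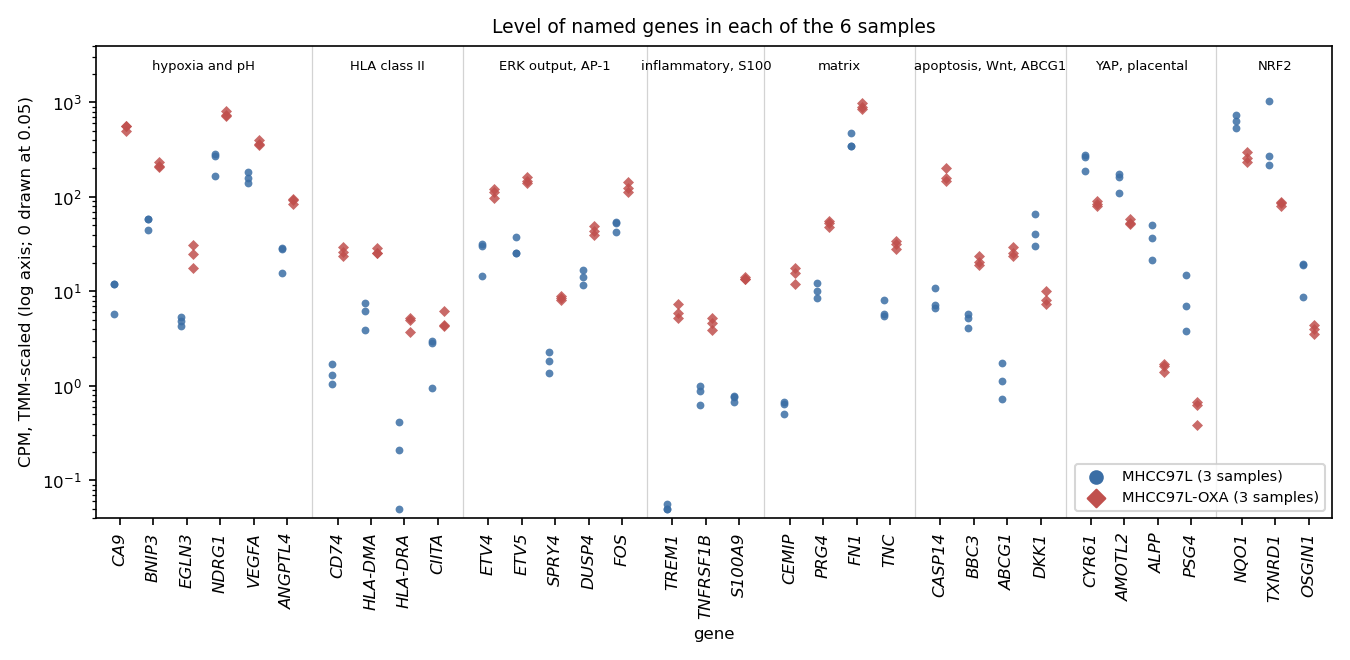
CPM on a log axis of leading genes in each of the 6 samples, with MHCC97L and MHCC97L-OXA in separate colors. The 3 resistant samples lie together and apart from the 3 parental samples for each gene drawn.

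Some genes of the hypoxia response rose in the resistant line, among them genes of pH control, mitophagy, glucose uptake and angiogenic signals. Of 47 genes of hypoxia and glycolysis, 19 rose and 1 fell, 27 did not pass, and 7 of the rises were also called before correction, with none falling. In the KEGG pathway HIF-1 signaling 10 of 77 were higher and 2 lower, and in Glycolysis / Gluconeogenesis 4 of 44 were higher and 3 lower, the latter near the shares over all tested genes (6.51% and 6.45%). Counts are given for MHCC97L replicates 1 to 3 against MHCC97L-OXA replicates 1 to 3. The median log2 fold change of the list was 0.61, against -0.08 for all tested genes, and 0.49 before correction, against -0.19. BNIP3, which marks mitochondria for autophagy, had 1114, 988 and 793 against 4114, 3885 and 3623 counts (log2 1.94 ± 0.12, adjusted p = 0.00105). Its relative BNIP3L had 896, 182 and 313 against 594, 621 and 593 counts (log2 1.46 ± 0.14, adjusted p = 0.00332), with raw counts that overlapped, MHCC97L replicate 1 the highest, and an uncorrected log2 fold change of 0.42 ± 0.50 (adjusted p = 0.603). ANGPTL4, a lipoprotein lipase inhibitor, had 300, 470 and 513 against 1675, 1520 and 1628 counts (log2 1.53 ± 0.10, adjusted p = 0.00133). EGLN3, the prolyl hydroxylase that marks HIF subunits for decay and is itself induced by them, had 103, 83 and 77 against 553, 322 and 438 counts (log2 2.36 ± 0.23, adjusted p = 0.00332). All 3 MHCC97L-OXA samples lay above all 3 MHCC97L samples in BNIP3, ANGPTL4 and EGLN3. VEGFA, the angiogenic growth factor, had 2684, 3108 and 2806 against 6409, 7209 and 6317 counts (log2 1.15 ± 0.13, adjusted p = 0.00466), and NDRG1, a stress-responsive gene, and ENO2, an enolase, rose by 1.61 ± 0.18 and 1.57 ± 0.10. The glucose transporter SLC2A3 had 1619, 1326 and 853 against 4824, 3304 and 3130 counts (log2 1.94 ± 0.26, adjusted p = 0.0078), and the ubiquitous glucose transporter SLC2A1 rose less (log2 0.71 ± 0.15, adjusted p = 0.0267). Other rises were LOX, which crosslinks collagen (2.70 ± 0.35), the mTORC1 inhibitor DDIT4 (0.85 ± 0.09), the lactate exporter SLC16A3 (0.61 ± 0.12) and PDK1, which holds pyruvate back from mitochondria (1.44 ± 0.27, uncorrected 0.40). The only fall was the hexokinase-like gene HKDC1 (log2 -2.92 ± 0.50, adjusted p = 0.0151).

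HIF1A and EPAS1, the alpha subunits, did not pass the test, unlike EGLN3. HIF1A had 2313, 300 and 1536 against 340, 481 and 649 counts (log2 -0.36 ± 0.31, adjusted p = 0.468), and EPAS1, which encodes HIF-2 alpha, had 8928, 9963 and 7971 against 8596, 9100 and 7788 counts (log2 -0.11 ± 0.10, adjusted p = 0.489). Per length, EPAS1 had 69.4 ± 8.18 FPKM in MHCC97L and 65.1 ± 5.00 in MHCC97L-OXA (mean ± SD, n = 3 per line) and HIF1A had 14.5 ± 10.6 FPKM in MHCC97L and 5.04 ± 1.46 in MHCC97L-OXA. ARNT2, a relative of the HIF beta subunit outside the list, rose from 58, 67 and 59 to 549, 537 and 461 counts (log2 3.07 ± 0.17, adjusted p = 0.00105). GAPDH, the most abundant member by counts, did not pass (log2 0.11 ± 0.11, adjusted p = 0.539). Of the hypoxia list, 23, 23, 16, 11, 11 and 12 rose and 2, 1, 1, 1, 0 and 0 fell in the 6 fits without 1 sample. ARNT2, BNIP3, BNIP3L, ANGPTL4, EGLN3, NDRG1, VEGFA, ENO2, SLC2A3, LOX and DDIT4 kept the corrected call in each fit without 1 sample. SLC2A1, SLC16A3, PDK1 and HKDC1 lost it without 1 or more of MHCC97L replicate 3 and MHCC97L-OXA replicates 1, 2 and 3 (adjusted p from 0.0592 to 0.12).

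Promoters of hypoxia genes that rose were searched for ACGTG, the core letters of the hypoxia response element, on both strands, in RefSeq promoters (GRCh38.p14) of 300 bases, 250 before and 50 after the start. Such a promoter was found for 9849 of the 12064 tested genes, and 2595 of them (26.3%) held ACGTG. Of the hypoxia genes, 42 of 47 had a promoter entry and 19 (45.2%) held the letters, and of the 19 that rose, 15 had an entry and 9 (60.0%) held them. A match is a description of the sequence and not a measured binding site. The list was chosen for the hypoxia response, so its larger share may come from that choice. Whether the letters go with the rise was not tested. The 250 bases before the start of CA9, BNIP3 and ANGPTL4 are shown as examples of risen genes that hold the letters, chosen for that, with the motif, read on either strand, in capitals. They lie at chr9:35673678-35673927 on the + strand for CA9, chr10:131981924-131982173 on the - strand for BNIP3 and chr19:8363905-8364154 on the + strand for ANGPTL4. The match begins 18 bases before the start in CA9 and 234 bases before it in ANGPTL4. In BNIP3 there are 2 overlapping matches, from 134 bases before the start, one on each strand.
CA9: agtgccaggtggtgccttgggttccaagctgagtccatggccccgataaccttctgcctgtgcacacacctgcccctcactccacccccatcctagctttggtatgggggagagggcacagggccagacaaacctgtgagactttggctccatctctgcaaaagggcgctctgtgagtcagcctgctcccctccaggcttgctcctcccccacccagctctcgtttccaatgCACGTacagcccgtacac
BNIP3: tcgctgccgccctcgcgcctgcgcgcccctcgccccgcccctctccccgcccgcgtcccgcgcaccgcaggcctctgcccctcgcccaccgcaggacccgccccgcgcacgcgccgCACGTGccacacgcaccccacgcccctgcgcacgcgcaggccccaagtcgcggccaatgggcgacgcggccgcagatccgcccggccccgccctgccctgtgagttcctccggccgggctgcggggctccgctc
ANGPTL4: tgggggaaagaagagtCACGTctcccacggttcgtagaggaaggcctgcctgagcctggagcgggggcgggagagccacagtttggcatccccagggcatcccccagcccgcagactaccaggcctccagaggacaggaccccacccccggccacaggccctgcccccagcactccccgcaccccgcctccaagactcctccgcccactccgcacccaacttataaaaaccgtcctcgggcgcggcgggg

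**Figure D4:**
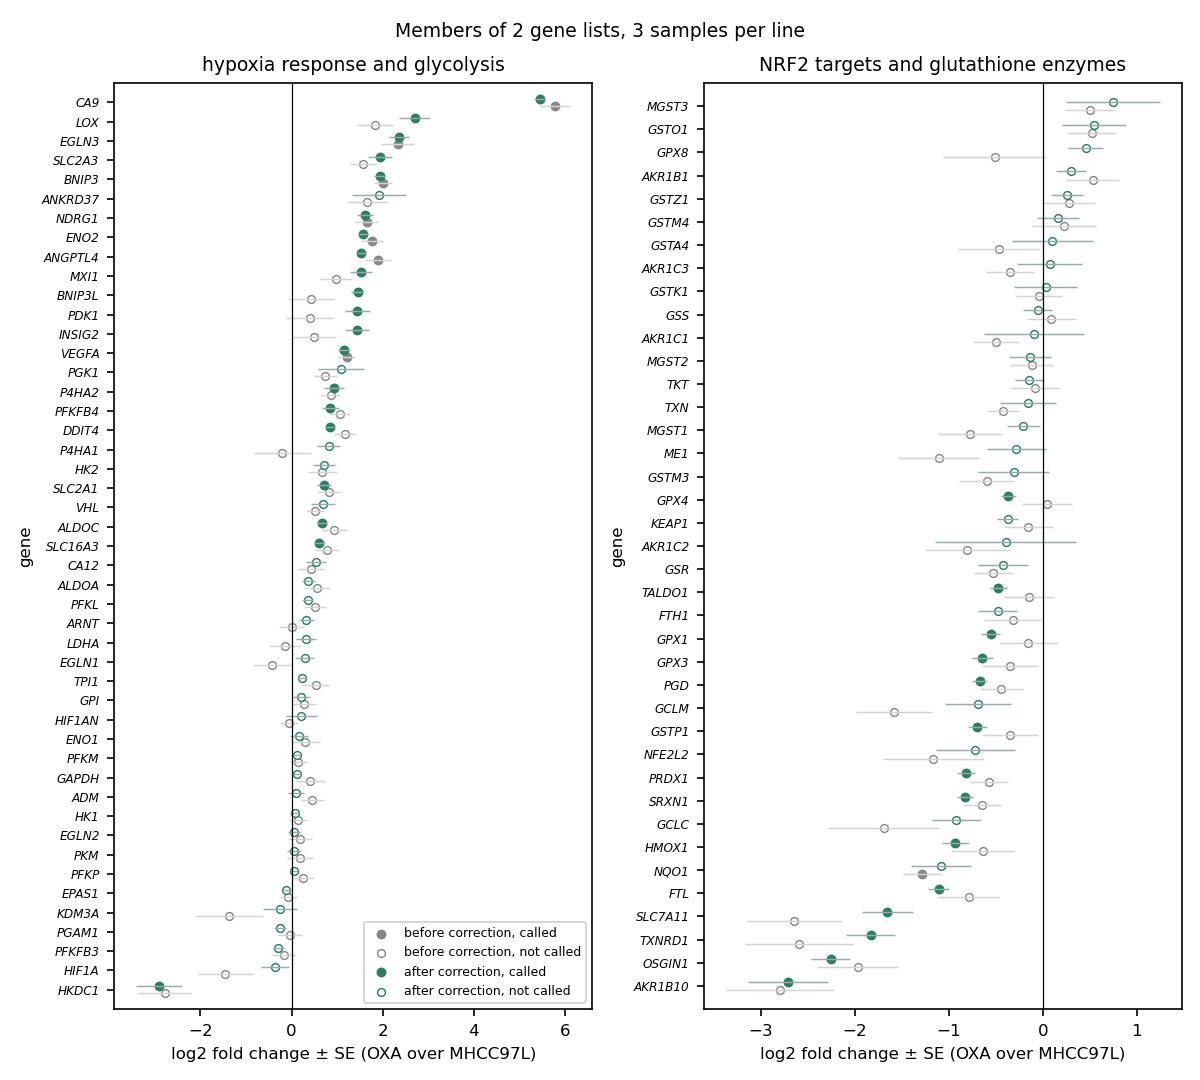
Log2 fold change before (grey) and after (green) correction for GC content and length (horizontal axis, with its SE) of tested members of the hypoxia list and of the NRF2 list (all but 1 of the latter), with genes past an adjusted p of 0.05 filled. After correction, the filled hypoxia members lie to the right as rises except HKDC1, and the filled NRF2 members all lie to the left as falls.

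Carbonic anhydrases and pH regulators had 13 tested members, of which 4 rose and none fell, with a median log2 fold change of 0.54, against 0.07 before correction. Besides CA9 and SLC16A3, these were CA5B, a mitochondrial anhydrase, with 225, 156 and 146 against 773, 720 and 654 counts (log2 2.61 ± 0.37, adjusted p = 0.00865), and CA11, a relative without known catalytic activity, with 208, 264 and 261 against 639, 751 and 642 counts (log2 1.11 ± 0.16, adjusted p = 0.00885). Before correction 2 members were called, CA9 and CA5B. CA12, the other HIF-regulated anhydrase of the cell surface, had 2795, 2427 and 1475 against 3836, 2639 and 2478 counts and did not pass (log2 0.54 ± 0.22, adjusted p = 0.155). Per length, CA9 was below CA12 in MHCC97L and above it in MHCC97L-OXA, with 5.34 ± 1.76 FPKM in MHCC97L and 310.1 ± 15.1 in MHCC97L-OXA for CA9 and 23.5 ± 7.21 FPKM in MHCC97L and 31.0 ± 7.61 in MHCC97L-OXA for CA12 (mean ± SD, n = 3 per line). Of these genes, 4, 4, 3, 1, 1 and 2 rose in the 6 fits without 1 sample. CA5B and CA11 lost the corrected call without 1 or more of MHCC97L-OXA replicates 1, 2 and 3 (adjusted p from 0.0521 to 0.072).

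Several genes of HLA class II antigen presentation were higher in the resistant line, from low or no counts in MHCC97L. Of 17 genes 11 were tested, 6 rose and 0 fell, and 4 were called before correction. Of the 11, 5 had under 10 counts in every parental sample and passed the filter through the resistant samples, so the filter favors rises here and no median is given. CD74, the invariant chain, had 20, 22 and 30 against 526, 473 and 418 counts (log2 3.94 ± 0.23, adjusted p = 0.00105). HLA-DRA had 4, 7 and 0 against 92, 67 and 89 counts (log2 4.53 ± 0.63, adjusted p = 0.00823), and HLA-DMA, part of the peptide editor, had 74, 105 and 132 against 453, 460 and 508 counts (log2 1.99 ± 0.25, adjusted p = 0.00585). In each of these the lines did not overlap. HLA-DPB1 had 0, 0 and 0 against 22, 22 and 33 counts, at least 8.57-fold higher against a floor of 3 counts per sample, and HLA-DRB1 had 0, 0 and 0 against 30, 26 and 18 counts, at least 8.21-fold higher. HLA-DPA1 had 1, 4 and 0 against 22, 17 and 17 counts (log2 4.04 ± 0.85, adjusted p = 0.0275). The master regulator CIITA had 18, 48 and 53 against 110, 78 and 77 counts and did not pass (log2 1.17 ± 0.41, adjusted p = 0.115), and neither did its promoter partner RFX5 (-0.41 ± 0.15, adjusted p = 0.119). Counts of HLA genes are uncertain, since some have near-identical copies and reads may be shared among them, which was not tested. Of the class II list, 7, 7, 6, 3, 2 and 4 rose in the 6 fits without 1 sample. Adjusted p was 0.0103 for HLA-DPB1 and 0.0102 for HLA-DRB1. CD74 and HLA-DMA kept the corrected call in each fit without 1 sample. HLA-DRA, HLA-DPB1, HLA-DRB1 and HLA-DPA1 lost it without 1 or more of MHCC97L replicates 1 and 3 and MHCC97L-OXA replicates 1, 2 and 3 (adjusted p from 0.0501 to 0.113).

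Class II promoters share a Y box, in which NF-Y binds the letters CCAAT, and the promoters of the list were searched for them on both strands. They were found in 10 of the 14 promoters with an entry (71.4%), against 3541 of 9849 (36.0%) over all tested genes. The 250 bases before the start are shown for CD74, chr5:150412911-150413160 on the - strand, and for HLA-DPB1, chr6:33075740-33075989 on the + strand, as 2 members that rose, with CCAAT or its reverse ATTGG in capitals (RefSeq, GRCh38.p14). CD74 has 1 match, from 53 bases before the start, and HLA-DPB1 has 2, from 99 and 75 bases before it.
CD74: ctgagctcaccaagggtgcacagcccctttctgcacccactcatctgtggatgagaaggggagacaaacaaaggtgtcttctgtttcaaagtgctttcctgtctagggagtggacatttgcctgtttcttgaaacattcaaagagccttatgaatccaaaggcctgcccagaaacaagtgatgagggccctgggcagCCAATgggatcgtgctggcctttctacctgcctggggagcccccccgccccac
HLA-DPB1: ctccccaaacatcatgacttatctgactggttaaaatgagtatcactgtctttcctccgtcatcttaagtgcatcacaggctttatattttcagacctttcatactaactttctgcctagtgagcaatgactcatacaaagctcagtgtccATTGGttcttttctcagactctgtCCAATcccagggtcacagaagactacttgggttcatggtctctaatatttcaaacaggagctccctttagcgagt

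Class I and interferon-stimulated genes were read together. Of 42 tested genes of both kinds, 11 rose and 2 fell, with 2 rises and no fall called before correction. The median log2 fold change was 0.18 (0.36 before). HLA-B, a class I heavy chain, had 2416, 3507 and 3792 against 9597, 8104 and 9805 counts (log2 1.13 ± 0.11, adjusted p = 0.0034). HLA-C (0.65 ± 0.08, uncorrected 1.02) and HLA-E (0.82 ± 0.10) rose as well, as did the peptide transporter TAP1 (0.53 ± 0.10). Their light chain B2M had 34679, 23342 and 15618 against 45234, 36774 and 33693 counts and did not pass (log2 1.18 ± 0.41, adjusted p = 0.108). ISG20, an exonuclease, had 10, 22 and 17 against 159, 135 and 109 counts (log2 2.98 ± 0.33, adjusted p = 0.00424), and OAS1, a sensor of double-stranded RNA, had 80, 81 and 55 against 263, 246 and 256 counts (log2 1.91 ± 0.20, adjusted p = 0.00372). NLRC5, the transactivator of class I genes, fell (log2 -0.65 ± 0.09, adjusted p = 0.00796). For this list, 13, 12, 9, 6, 5 and 7 rose and 2, 5, 1, 0, 0 and 0 fell in the 6 fits without 1 sample. HLA-B, ISG20 and OAS1 kept the corrected call in each fit without 1 sample. HLA-C, HLA-E, TAP1 and NLRC5 lost it without 1 or more of MHCC97L-OXA replicates 1, 2 and 3 (adjusted p from 0.05 to 0.124).

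Transcripts that report ERK activity rose where they were called. Of 18 tested genes of ERK output, 11 rose and 0 fell, 5 of the rises were also called before correction, and the median log2 fold change was 1.09 (1.15 before). ETV5, an ETS factor downstream of ERK, had 486, 633 and 456 against 2639, 2954 and 2454 counts (log2 2.49 ± 0.24, adjusted p = 0.00347), and its relative ETV4 had 281, 543 and 534 against 1741, 2185 and 1991 counts (log2 1.85 ± 0.15, adjusted p = 0.00211). The feedback phosphatases DUSP4 and DUSP6, which switch ERK off, had 225, 288 and 254 against 769, 892 and 699 counts and 10, 11 and 2 against 68, 125 and 56 counts. DUSP4 changed by 1.64 ± 0.18 (adjusted p = 0.0043) and DUSP6 by 3.78 ± 0.56 (adjusted p = 0.00974). The Sprouty inhibitors SPRY4 (35, 39 and 24 against 159, 148 and 152 counts, log2 2.31 ± 0.24, adjusted p = 0.00379) and SPRY1 (2.35 ± 0.33) rose, as did IER3 (1.06 ± 0.11). CCND1, the G1 cyclin, had 2153, 2007 and 1365 against 1739, 1849 and 1507 counts (log2 -0.04 ± 0.13, adjusted p = 0.84), and MYC, the most abundant member, had 9654, 11739 and 10737 against 15662, 14674 and 13645 counts (log2 0.22 ± 0.09, adjusted p = 0.173), and neither passed. Of the ERK genes, 11, 11, 8, 6, 5 and 7 rose and 1, 0, 0, 0, 0 and 0 fell in the 6 fits without 1 sample. ETV5, ETV4, DUSP4, SPRY4 and IER3 kept the corrected call in each fit without 1 sample. DUSP6 and SPRY1 lost it without 1 or more of MHCC97L-OXA replicates 1 and 2 (adjusted p from 0.0525 to 0.061).

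Among AP-1 and immediate early factors, 19 were tested and 6 rose and 0 fell, with a median of 0.22 (0.48 before). FOS had 817, 909 and 936 against 2573, 2263 and 2006 counts (log2 1.14 ± 0.12, adjusted p = 0.00406) and was the only one also called before correction. The nuclear receptor NR4A2 had 193, 119 and 66 against 691, 591 and 528 counts (log2 2.53 ± 0.22, adjusted p = 0.00251), and JUN, the partner of FOS, rose less (log2 0.58 ± 0.10, adjusted p = 0.0145). JUNB was higher in each resistant sample without passing (log2 0.19 ± 0.08, adjusted p = 0.184). The AP-1 site TGANTCA was in 1 of the 16 promoters of this list that had an entry (6.25%), against 482 of 9849 (4.89%) over all tested genes 10 of 64 (15.6%) among the genes called higher in both tests and 3 of 15 (20%) among those called lower in both. Of these factors, 8, 7, 5, 2, 2 and 2 rose and 1, 0, 0, 0, 0 and 0 fell in the 6 fits without 1 sample. FOS and NR4A2 kept the corrected call in each fit without 1 sample. JUN lost it without 1 or more of MHCC97L-OXA replicates 1, 2 and 3 (adjusted p from 0.0849 to 0.0949).

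Receptors and ligands lie upstream of these outputs. Of 24 tested receptor tyrosine kinases and ligands, edgeR called none before correction, with 7 at an unadjusted p under 0.05, and after correction 4 rose and 2 fell. FGF21, a hormone-like FGF, had 13, 39 and 32 against 113, 132 and 133 counts (log2 1.87 ± 0.27, adjusted p = 0.00865), and AREG, a ligand of EGFR, had 44, 14 and 25 against 88, 81 and 59 counts (log2 1.72 ± 0.30, adjusted p = 0.0162). EGFR itself had 1889, 784 and 918 against 1364, 1549 and 1275 counts, overlapping between lines in raw counts, with log2 0.65 ± 0.11, adjusted p = 0.016, uncorrected 0.25. FGFR1 rose (0.79 ± 0.19), while FGFR3 (-0.57 ± 0.12) and the growth factor IGF2 (-1.28 ± 0.28) fell. IGF1R, the most abundant by counts, did not pass (-0.14 ± 0.14), nor did the HGF receptor MET (-0.73 ± 0.46). The median of this list was 0.24 (0.12 before). In the 6 fits without 1 sample, 6, 6, 3, 1, 0 and 0 rose and 2, 3, 0, 0, 0 and 0 fell. FGF21, AREG, EGFR, FGFR1, FGFR3 and IGF2 lost the corrected call without 1 or more of MHCC97L replicate 3 and MHCC97L-OXA replicates 1, 2 and 3 (adjusted p from 0.0565 to 0.171).

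Of 21 tested SRC family kinases and adhesion substrates, edgeR called none before correction (9 at an unadjusted p under 0.05) and after it 6 rose and 2 fell. SRC had 25, 37 and 41 against 46, 23 and 23 counts, a low and overlapping level (log2 -0.31 ± 0.35, adjusted p = 0.598). FYN, a SRC family kinase, had 259, 194 and 157 against 423, 390 and 365 counts (log2 1.14 ± 0.14, adjusted p = 0.00551), and the fibronectin receptor subunit ITGA5 had 8051, 12007 and 11714 against 23474, 24072 and 23948 counts (log2 1.08 ± 0.12, adjusted p = 0.00466). The integrin subunits ITGB4 (1.07 ± 0.10) and ITGB5 (1.05 ± 0.12) rose. PXN, the focal adhesion adaptor paxillin, fell (log2 -0.76 ± 0.10, adjusted p = 0.00818), as did CSK, the kinase that restrains SRC (log2 -0.37 ± 0.09, adjusted p = 0.0412, uncorrected -0.08). ITGB1, the shared beta subunit, was spread widely within MHCC97L (8911, 728 and 2847 against 1091, 1313 and 1441 counts) and did not pass (log2 -0.43 ± 0.32, adjusted p = 0.404). The list's median was -0.09 (-0.19 before). In the 6 fits without 1 sample, 6, 7, 5, 5, 4 and 5 rose and 4, 3, 1, 0, 0 and 0 fell. ITGA5, ITGB4 and ITGB5 kept the corrected call in each fit without 1 sample. FYN, PXN and CSK lost it without 1 or more of MHCC97L replicates 2 and 3 and MHCC97L-OXA replicates 1, 2 and 3 (adjusted p from 0.0524 to 0.226).

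Inflammatory genes were called mostly as rises, but TREM1 passed the filter only through the resistant samples. The filter thus favors rises here as well. Of 37 inflammatory cytokines and NF-kB targets 24 were tested, 5 rose and 1 fell, and 2 rises were called before correction. The median was 0.12 (0.25 before). Besides TREM1, the TNF receptor TNFRSF1B had 17, 17 and 11 against 93, 84 and 69 counts (log2 2.22 ± 0.33, adjusted p = 0.00964). TYROBP, the adaptor through which TREM1 signals in myeloid cells, had no count in any of the 6 samples. The chemokine CCL5 (log2 1.95 ± 0.48, adjusted p = 0.0437) and the cytokines IL11 (log2 1.51 ± 0.32, adjusted p = 0.0297) and LIF (log2 0.91 ± 0.19, adjusted p = 0.0275) rose from low counts, and the acute phase protein SAA1 fell (log2 -1.51 ± 0.32, adjusted p = 0.029). The NF-kB subunits NFKB1 (-0.06 ± 0.17) and RELA (-0.12 ± 0.11) and the most abundant member, TNFRSF1A (-0.23 ± 0.08), did not pass. Of these genes, 5, 4, 3, 1, 1 and 2 rose and 2, 2, 0, 0, 0 and 0 fell in the 6 fits without 1 sample. TNFRSF1B, CCL5, IL11, LIF and SAA1 lost the corrected call without 1 or more of MHCC97L replicates 2 and 3 and MHCC97L-OXA replicates 1, 2 and 3 (adjusted p from 0.05 to 0.159).

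S100 proteins and annexins had 24 tested members, of which 5 rose and 2 fell, 1 was called before correction (S100A9) and the median was -0.03 (0.13 before). S100A8, which pairs with S100A9 in calprotectin, had 5, 6 and 3 against 36, 19 and 25 counts (log2 2.16 ± 0.43, adjusted p = 0.0241). It passed the filter only through the resistant samples, which favors a rise. ANXA8 had 1046, 1175 and 1255 against 602, 493 and 535 counts (log2 -1.38 ± 0.15, adjusted p = 0.00396), and its near-identical copy ANXA8L1 had 1783, 2320 and 2354 against 1022, 988 and 1006 counts (log2 -1.37 ± 0.10, adjusted p = 0.00154), so reads may be shared between them. ANXA2, the most abundant annexin by counts, did not pass (log2 -0.42 ± 0.24, adjusted p = 0.291). For S100 proteins and annexins, 6, 5, 5, 1, 1 and 1 rose and 3, 2, 2, 2, 2 and 2 fell in the 6 fits without 1 sample. ANXA8 and ANXA8L1 kept the corrected call in each fit without 1 sample. S100A8 lost it without 1 or more of MHCC97L replicate 3 and MHCC97L-OXA replicates 1, 2 and 3 (adjusted p from 0.0717 to 0.098).

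Matrix genes rose more often than they fell. Of 39 tested collagens, laminins and matrix proteins, 11 rose and 2 fell, with 3 rises and no fall before correction. The median was 0.19 (0.10 before). TNC, a matrix glycoprotein of remodelling tissue, had 104, 137 and 102 against 567, 621 and 493 counts (log2 2.23 ± 0.20, adjusted p = 0.00291). COL6A2, a chain of collagen VI, had 183, 303 and 287 against 941, 974 and 943 counts (log2 1.59 ± 0.14, adjusted p = 0.00251), and FN1, fibronectin, had 8991, 5894 and 6152 against 15711, 18094 and 14849 counts (log2 1.80 ± 0.37, adjusted p = 0.0267). These 3 were called in both tests. COL5A1, the most abundant by summed counts, had 14017, 19770 and 19646 against 24602, 25548 and 25699 counts and did not pass (log2 0.38 ± 0.12, adjusted p = 0.0934). Of the matrix genes, 14, 13, 7, 6, 4 and 5 rose and 3, 2, 1, 0, 0 and 0 fell in the 6 fits without 1 sample. TNC and COL6A2 kept the corrected call in each fit without 1 sample. FN1 lost it without 1 or more of MHCC97L replicate 3 and MHCC97L-OXA replicates 1, 2 and 3 (adjusted p from 0.0853 to 0.116).

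Hyaluronan and matrix turnover genes had 22 tested members, of which 6 rose and 1 fell, with a median of 0.27 (0.49 before). CEMIP and PRG4, the lubricant proteoglycan, were called in both tests, and PRG4 had 237, 170 and 149 against 947, 1010 and 850 counts (log2 2.72 ± 0.21, adjusted p = 0.00175). The gelatinase MMP2 had 3801, 5782 and 5265 against 11495, 11937 and 12002 counts (log2 1.10 ± 0.10, adjusted p = 0.00251), and TIMP1, an inhibitor of such proteases, rose with it (0.86 ± 0.10). CD44, the hyaluronan receptor, had 7432, 6696 and 5033 against 9283, 9615 and 8709 counts, higher in each resistant sample without passing (log2 0.91 ± 0.29, adjusted p = 0.0918), and TIMP2, the most abundant member, did not pass (0.23 ± 0.09, adjusted p = 0.152). Of this list, 9, 8, 5, 4, 3 and 4 rose and 1, 2, 1, 0, 0 and 0 fell in the 6 fits without 1 sample. PRG4 and MMP2 kept the corrected call in each fit without 1 sample. TIMP1 lost it without MHCC97L-OXA replicate 2 (adjusted p = 0.051).

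Genes used to score epithelial and mesenchymal states moved in both directions. Of 26 tested, 4 rose and 6 fell, 1 rise (FN1) was called before correction, and the median was -0.17 (-0.29 before). TWIST1, a mesenchymal transcription factor, had 326, 414 and 345 against 836, 918 and 913 counts (log2 0.92 ± 0.17, adjusted p = 0.0185), while the tight junction genes CLDN7 (1.01 ± 0.18) and CLDN4 (1.25 ± 0.28) rose too. The keratins KRT8 (log2 -1.11 ± 0.14, adjusted p = 0.00551) and KRT18 (-0.59 ± 0.11, uncorrected -0.33) fell. CDH1, which encodes E-cadherin, had 19, 19 and 15 against 3, 4 and 2 counts (log2 -2.33 ± 0.40, adjusted p = 0.0149), low in both lines, and the endothelial cadherin CDH5 fell by 1.41 on the log2 scale (adjusted p = 0.0387). VIM, vimentin, had 22360, 22882 and 16729 against 29844, 25861 and 23099 counts and did not pass (log2 0.52 ± 0.19, adjusted p = 0.119), nor did SNAI1 (-0.21 ± 0.09) or ZEB1 (-0.39 ± 0.55). Of this list, 4, 5, 1, 0, 0 and 0 rose and 7, 5, 5, 3, 2 and 3 fell in the 6 fits without 1 sample. TWIST1, CLDN7, CLDN4, KRT8, KRT18, CDH1 and CDH5 lost the corrected call without 1 or more of MHCC97L replicates 2 and 3 and MHCC97L-OXA replicates 1, 2 and 3 (adjusted p from 0.0519 to 0.162).

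TGF-beta and BMP genes had 22 tested members, of which edgeR called none before correction (9 at an unadjusted p under 0.05) and 3 rose and 3 fell after it, with a median of -0.40 before and 0.10 after. INHBE, an activin subunit made in liver, had 25, 60 and 41 against 228, 253 and 257 counts (log2 2.36 ± 0.25, adjusted p = 0.00401). The BMP target ID3 (10268, 17081 and 19297 to 9180, 8712 and 9093 counts, log2 -1.14 ± 0.10, adjusted p = 0.00251) fell. TGFB1 (0.31 ± 0.09), SMAD3 (-0.04 ± 0.15) and the most abundant member, TGFBI (0.07 ± 0.15), did not pass. For TGF-beta and BMP genes, 4, 4, 3, 1, 1 and 2 rose and 4, 4, 3, 2, 1 and 2 fell in the 6 fits without 1 sample. INHBE and ID3 kept the corrected call in each fit without 1 sample.

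YAP and TAZ are coactivators that respond to cell density and tension, and their list holds targets and partners. Of 18 tested, 0 rose and 3 fell, 2 falls were called before correction, and the median was -0.41. The share of this list called after correction (16.7%) was near that of all tested genes (12.95%). CYR61 had 3607, 4451 and 4872 against 1431, 1658 and 1502 counts (log2 -1.59 ± 0.19, adjusted p = 0.00551), and AMOTL2, an angiomotin, had 2094, 2739 and 3112 against 935, 1049 and 915 counts (log2 -1.59 ± 0.11, adjusted p = 0.00133). TEAD4, a DNA-binding partner of YAP, fell as well (log2 -0.98 ± 0.09, adjusted p = 0.0031, uncorrected -0.62). CTGF, the other classical target, had 478, 325 and 330 against 269, 308 and 242 counts and did not pass (log2 -0.63 ± 0.23, adjusted p = 0.13), and YAP1 (log2 -0.37 ± 0.20, adjusted p = 0.257) and WWTR1, which encodes TAZ (log2 0.38 ± 0.30, adjusted p = 0.428), did not pass either. Of the YAP and TAZ genes, 0, 2, 0, 0, 0 and 0 rose and 5, 5, 3, 3, 3 and 3 fell in the 6 fits without 1 sample. CYR61, AMOTL2 and TEAD4 kept the corrected call in each fit without 1 sample.

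Of 24 placental and oncofetal glycoproteins 5 were tested, of which 1 rose and 3 fell and 3 falls were called before correction. The filter favors genes high in a single line here as well. Beside ALPP and PSG5, PSG4 had 285, 64 and 123 against 12, 7 and 11 counts (log2 -4.39 ± 0.80, adjusted p = 0.0179), with the counts of PSG genes uncertain because of their near-identical copies. CEACAM1, an adhesion molecule of the same superfamily as the PSG genes, rose from 8, 0 and 6 to 44, 39 and 25 counts (log2 3.22 ± 0.66, adjusted p = 0.0254). Of these 5, 1, 1, 0, 0, 0 and 0 rose and 3, 3, 3, 2, 2 and 2 fell in the 6 fits without 1 sample. The SLC12 cotransporters had 8 tested members, of which 0 rose and 2 fell, SLC12A3 alone was called before correction, and the median was -0.25. SLC12A8, the most abundant, had 6634, 8192 and 7471 against 4684, 4709 and 4843 counts (log2 -0.69 ± 0.12, adjusted p = 0.0168), and SLC12A2, the sodium-potassium-chloride cotransporter, did not pass (log2 -1.02 ± 0.53, adjusted p = 0.246). In this family, 2, 3, 2, 0, 1 and 1 fell in the 6 fits without 1 sample. PSG4, CEACAM1 and SLC12A8 lost the corrected call without 1 or more of MHCC97L replicate 3 and MHCC97L-OXA replicates 1, 2 and 3 (adjusted p from 0.0535 to 0.116).

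Antioxidant genes driven by NRF2 and enzymes of glutathione fell where they were called. Of 40 tested, 0 rose and 15 fell, 25 did not pass and 9 had a log2 fold change above 0, with a median of -0.41, and before correction 1 fall, NQO1, was called. OSGIN1, an NRF2 target, had 165, 318 and 342 against 71, 64 and 78 counts (log2 -2.26 ± 0.21, adjusted p = 0.00296), and the sulfiredoxin SRXN1 had 2401, 3068 and 2928 against 1880, 1779 and 1736 counts (log2 -0.82 ± 0.09, adjusted p = 0.00382). Every resistant sample was below every parental sample in these genes. TXNRD1, thioredoxin reductase, had 19916, 3658 and 4825 against 1555, 1577 and 1398 counts (log2 -1.83 ± 0.26, adjusted p = 0.00865), and SLC7A11, the cystine importer that feeds glutathione synthesis, had 1370, 371 and 917 against 105, 108 and 202 counts (log2 -1.65 ± 0.27, adjusted p = 0.0132, uncorrected -2.64), both with MHCC97L samples far apart. The ferritin light chain FTL (log2 -1.11 ± 0.11, adjusted p = 0.00347), HMOX1, heme oxygenase (-0.93 ± 0.14), GSTP1, a glutathione transferase (-0.70 ± 0.10, uncorrected -0.35), and PRDX1 and GPX4, which reduce peroxides (-0.81 ± 0.10 and -0.36 ± 0.08), fell as well. GPX4 had 4888, 7923 and 8540 against 7039, 7246 and 7885 counts, so its lines overlapped, its uncorrected log2 fold change was 0.04 ± 0.26, and its direction also turned under 1 alternative correction, so its fall rests on the correction used. NQO1, a quinone reductase, had 10200, 12500 and 11342 against 5289, 4277 and 4512 counts, with an uncorrected log2 fold change of -1.28 ± 0.21 (adjusted p = 0.0387) and a corrected one of -1.08 ± 0.32 (adjusted p = 0.074). NFE2L2, which encodes NRF2, did not pass (log2 -0.72 ± 0.42, adjusted p = 0.302), nor did its inhibitor KEAP1 (log2 -0.37 ± 0.11, adjusted p = 0.0773) or the most abundant member, FTH1 (log2 -0.48 ± 0.21, adjusted p = 0.176). Of the NRF2 list, 1, 0, 0, 0, 0 and 0 rose and 21, 17, 14, 5, 4 and 6 fell in the 6 fits without 1 sample. OSGIN1, SRXN1 and FTL kept the corrected call in each fit without 1 sample. TXNRD1, SLC7A11, HMOX1, GSTP1, PRDX1 and GPX4 lost it without 1 or more of MHCC97L replicate 3 and MHCC97L-OXA replicates 1, 2 and 3 (adjusted p from 0.0563 to 0.198).

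Of 41 genes of phase I and II drug metabolism 15 were tested, and edgeR called none before correction (6 at an unadjusted p under 0.05). After it 1 rose and 3 fell, with a median of -0.37 (-0.67 before). ALDH3A1, an aldehyde dehydrogenase, had 409, 592 and 810 against 173, 199 and 224 counts (log2 -1.90 ± 0.19, adjusted p = 0.00347), and CYP1B1, a target of the aryl hydrocarbon receptor, had 2170, 230 and 753 against 94, 91 and 122 counts (log2 -2.42 ± 0.42, adjusted p = 0.0154). Both were low in every resistant sample, and CYP1B1 was also spread widely within MHCC97L. CYP2S1 rose (log2 0.91 ± 0.18, adjusted p = 0.0209), and POR, which passes electrons to cytochromes P450 and was the most abundant member, fell (log2 -0.37 ± 0.08, adjusted p = 0.0276, uncorrected -0.10). AHR, the receptor, did not pass (log2 0.68 ± 0.30, adjusted p = 0.185) and had -0.67 ± 0.76 before correction, while AHRR, its repressor and target, had 490, 647 and 654 against 122, 125 and 115 counts and fell in both tests (log2 -2.42 ± 0.14, adjusted p = 0.00105). For drug metabolism, 1, 1, 1, 0, 0 and 0 rose and 5, 3, 2, 1, 1 and 1 fell in the 6 fits without 1 sample. ALDH3A1 and AHRR kept the corrected call in each fit without 1 sample. CYP1B1, CYP2S1 and POR lost it without 1 or more of MHCC97L replicate 3 and MHCC97L-OXA replicates 1, 2 and 3 (adjusted p from 0.0555 to 0.151).

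Repair and tolerance of platinum lesions gave no called gene among 44 tested, by edgeR with all 6 samples before or after correction. An alternative correction fitted within each line called 3 higher and 15 lower. The uncorrected test without MHCC97L replicate 2 called 16 lower. Before correction 12, all lower, had an unadjusted p under 0.05, DESeq2 called 1 lower and limma voom 1 higher and 2 lower. After correction 1 was higher and 7 lower at that p, DESeq2 called 6 lower and voom 1 higher and 5 lower. The median log2 fold change was -0.30 after correction and -0.82 before, below the medians of all tested genes. ERCC1, of the excision nuclease, had 568, 930 and 1020 against 1177, 1131 and 1157 counts (log2 0.33 ± 0.15, adjusted p = 0.199). XPA, which verifies the lesion, had 160, 60 and 74 against 85, 66 and 45 counts (log2 -0.02 ± 0.28, adjusted p = 0.965), and DDB1, the most abundant member, had 7290, 10944 and 10334 against 10445, 10221 and 10175 counts (log2 0.03 ± 0.13, adjusted p = 0.885). None of these was separated from the spread within MHCC97L by the test. BRCA1 had 635, 65 and 360 against 99, 96 and 139 counts (log2 -0.58 ± 0.39, adjusted p = 0.361), with MHCC97L replicate 1 the highest sample. Of the repair genes, 1, 2, 0, 0, 0 and 0 rose and 1, 10, 0, 0, 0 and 0 fell in the 6 fits without 1 sample.

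Platinum and copper transport and metallothioneins had 15 tested members, of which 2 rose and 0 fell, the same 2 as before correction. This share called (13.3%) was near that of all tested genes (12.95%), and the median was 0.07 (0.01 before). MT1X had 807, 1082 and 1080 against 2451, 2412 and 2694 counts (log2 1.06 ± 0.11, adjusted p = 0.00367), and MT1F had 41, 47 and 39 against 201, 187 and 185 counts (log2 1.77 ± 0.25, adjusted p = 0.00841), both metal-binding metallothioneins whose gene copies are alike enough to share reads. MT2A, the most abundant of the list, had 5658, 6540 and 7411 against 9927, 11060 and 11911 counts, higher in each resistant sample but short of the threshold (log2 0.39 ± 0.16, adjusted p = 0.156). The copper importer SLC31A1, which also takes up platinum, had 1120, 471 and 280 against 587, 457 and 362 counts (log2 0.29 ± 0.29, adjusted p = 0.541). The copper exporters ATP7A (-0.68 ± 0.34) and ATP7B (0.69 ± 0.19) did not pass. For these genes, 3, 2, 2, 1, 1 and 1 rose and 0, 0, 1, 0, 0 and 0 fell in the 6 fits without 1 sample. MT1X kept the corrected call in each fit without 1 sample. MT1F lost it without 1 or more of MHCC97L-OXA replicates 1, 2 and 3 (adjusted p from 0.0511 to 0.0618).

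Of 8 tested drug efflux transporters, edgeR called none before correction (2 at an unadjusted p under 0.05, with 2 called by DESeq2 and 3 by limma voom), and after it 0 rose and 2 fell. ABCC2, an exporter of conjugated drugs, had 3949, 598 and 1112 against 294, 334 and 355 counts (log2 -1.66 ± 0.30, adjusted p = 0.0179), and ABCG2, the breast cancer resistance protein, had 378, 70 and 136 against 40, 41 and 54 counts (log2 -1.07 ± 0.21, adjusted p = 0.0224). MHCC97L replicate 1 was the highest sample in both. Uncorrected, ABCC2 and ABCG2 changed by -2.47 ± 0.60 and -2.06 ± 0.61, and by -1.33 and -1.13 without that sample. ABCC1 had 3267, 4149 and 3848 against 3885, 3850 and 3988 counts (log2 -0.02 ± 0.10, adjusted p = 0.899), ABCC3, the most abundant, did not pass (log2 0.32 ± 0.09, adjusted p = 0.0559), and ABCB1 had no count in any sample. The median of the list was -0.20, and 1, 0, 0, 0, 0 and 0 rose and 2, 2, 0, 0, 0 and 0 fell in the 6 fits without 1 sample. ABCC2 and ABCG2 lost the corrected call without 1 or more of MHCC97L replicate 3 and MHCC97L-OXA replicates 1, 2 and 3 (adjusted p from 0.0511 to 0.129).

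ABCG1, a cholesterol exporter and target of liver X receptors (LXRs), had 14, 19 and 31 against 457, 541 and 420 counts (log2 4.33 ± 0.30, adjusted p = 0.00133). It was high in all 3 resistant samples. Of 12 tested LXR targets and cholesterol efflux genes, 2 rose and 0 fell, ABCG1 alone was called before correction, and the median was 0.46. Their share called after correction (16.7%) was near that of all tested genes (12.95%). The other rise was MYLIP, a ubiquitin ligase (log2 1.26 ± 0.21, adjusted p = 0.0132). ABCA1, the partner exporter, had 22, 0 and 3 against 12, 20 and 11 counts (log2 1.60 ± 0.75, adjusted p = 0.207), and the receptors NR1H3 (0.01 ± 0.12) and NR1H2 (0.21 ± 0.11) did not pass, nor did SCD, the most abundant member (0.81 ± 0.28). For LXR targets, 3, 4, 2, 1, 1 and 1 rose and 2, 0, 0, 0, 0 and 0 fell in the 6 fits without 1 sample. Cholesterol synthesis had 25 tested genes, none of them called by edgeR in either test. At an unadjusted p under 0.05 there were 2 before and 5 after correction, DESeq2 called 1 and 1, and limma voom 1 and 7. Their regulator SREBF2 did not pass (log2 0.27 ± 0.12, adjusted p = 0.192). The median was -0.12, and 0, 1, 0, 0, 0 and 0 rose and 5, 2, 0, 0, 0 and 0 fell in the 6 fits without 1 sample. ABCG1 kept the corrected call in each fit without 1 sample. MYLIP lost it without 1 or more of MHCC97L-OXA replicates 1, 2 and 3 (adjusted p from 0.0533 to 0.089).

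Genes of the Wnt pathway moved both ways. Of 47 tested, 7 rose and 5 fell, with 1 rise and 1 fall before correction and a median of -0.00 (-0.08 before). DKK1, a secreted inhibitor of Wnt receptors, had 1259, 688 and 536 against 179, 146 and 131 counts (log2 -2.01 ± 0.22, adjusted p = 0.0042), and NKD2, an inhibitor inside the cell, had 48, 42 and 37 against 180, 203 and 192 counts (log2 1.68 ± 0.29, adjusted p = 0.0158). The ligand WNT6 had 136, 188 and 183 against 444, 450 and 434 counts (log2 0.83 ± 0.14, adjusted p = 0.015, uncorrected 1.38), while the ligands WNT7B (-1.37 ± 0.21) and WNT9A (-1.49 ± 0.25) and the receptor FZD2 (-0.91 ± 0.14, uncorrected -0.54) fell with DKK1. FZD8, a further receptor, had 23, 37 and 44 against 65, 80 and 68 counts and did not pass (log2 0.80 ± 0.24, adjusted p = 0.0744). AXIN2, the general target of beta-catenin, had 14, 11 and 3 against 18, 16 and 8 counts (log2 0.49 ± 0.56, adjusted p = 0.596), and CTNNB1, beta-catenin, had 3985, 1523 and 1019 against 1363, 908 and 794 counts (log2 -0.33 ± 0.30, adjusted p = 0.497). The coreceptor LRP6 (-0.14 ± 0.22) and GSK3B (0.03 ± 0.24) did not pass. Of the Wnt genes, 7, 7, 3, 0, 0 and 0 rose and 5, 7, 4, 1, 1 and 2 fell in the 6 fits without 1 sample. Of 17 tested Notch genes, edgeR called none before correction (5 at an unadjusted p under 0.05), and after it 4 rose and 0 fell, with a median of 0.44 before and -0.02 after. The ligands JAG1 (283, 235 and 106 to 682, 577 and 438 counts, log2 1.62 ± 0.30, adjusted p = 0.018) and DLL4 (1.45 ± 0.29) and the target HEY1 (1.10 ± 0.18) rose, and NOTCH1 (-0.05 ± 0.13) and NOTCH2 (-0.03 ± 0.15), the most abundant, did not pass. For Notch, 4, 4, 3, 0, 0 and 0 rose in the 6 fits without 1 sample. DKK1 kept the corrected call in each fit without 1 sample. NKD2, WNT6, WNT7B, WNT9A, FZD2, JAG1, DLL4 and HEY1 lost it without 1 or more of MHCC97L replicate 3 and MHCC97L-OXA replicates 1, 2 and 3 (adjusted p from 0.058 to 0.124).

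Several targets of p53 rose while others did not. Of 29 tested, 6 rose and 2 fell, 2 rises were called before correction, and the median was 0.30. BBC3, the proapoptotic protein PUMA, had 79, 98 and 93 against 335, 433 and 364 counts (log2 1.53 ± 0.19, adjusted p = 0.0059), and GDF15, a stress-induced cytokine, had 214, 255 and 250 against 866, 922 and 824 counts (log2 1.38 ± 0.19, adjusted p = 0.00832). CDKN1A, the cell cycle inhibitor p21 and the most abundant member, had 2127, 3533 and 3389 against 6384, 6690 and 6349 counts (log2 0.83 ± 0.08, adjusted p = 0.00361). These were higher in each resistant sample than in any parental one. SESN2 (0.83 ± 0.10) also rose, and PLK2 (-2.23 ± 0.39) and TP53I3 (-0.76 ± 0.11, uncorrected -0.46) fell. MDM2 did not pass (log2 -0.28 ± 0.25, adjusted p = 0.488). For p53 targets, 9, 6, 5, 3, 2 and 4 rose and 2, 2, 2, 0, 0 and 0 fell in the 6 fits without 1 sample. Among 25 tested caspases and BCL2 family genes, 4 rose and 1 fell, with CASP14 and BBC3 called before correction. The median was 0.03 (0.14 before). The inflammatory caspases CASP1 (1.00 ± 0.22, uncorrected 0.23) and CASP4 (1.14 ± 0.24, uncorrected 0.18) rose after correction, and the survival gene BCL2L1 fell (log2 -0.48 ± 0.11, adjusted p = 0.0401, uncorrected -0.27). BCL2 had 124, 49 and 44 against 30, 45 and 38 counts (log2 -0.33 ± 0.26, adjusted p = 0.433), and BAX (-0.22 ± 0.10, uncorrected 0.14 ± 0.27) and MCL1 (0.54 ± 0.24, uncorrected -0.11 ± 0.50), the most abundant, did not pass. In this family, 6, 7, 2, 2, 2 and 2 rose and 1, 1, 0, 0, 0 and 0 fell in the 6 fits without 1 sample. BBC3 and CDKN1A kept the corrected call in each fit without 1 sample. GDF15, SESN2, PLK2, TP53I3, CASP1, CASP4 and BCL2L1 lost it without 1 or more of MHCC97L replicate 3 and MHCC97L-OXA replicates 1, 2 and 3 (adjusted p from 0.0525 to 0.173).

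Cell cycle and DNA replication genes lay mostly below 0, as did 6758 of 12004 genes over all those tested after correction. Their share called after correction (11.1%) was near that of all tested genes (12.95%). Of 54 tested, edgeR called none before correction (2 higher and 13 lower at an unadjusted p under 0.05), and after it 1 rose and 5 fell (DESeq2 2 higher and 14 lower), 44 were below 0, with a median of -0.27. The rise was CDKN1A, and the falls were CDKN1C, an inhibitor of cyclin-dependent kinases (log2 -1.07 ± 0.11, adjusted p = 0.00396, uncorrected -0.71), CDC25A, a phosphatase that activates them (log2 -0.73 ± 0.13, adjusted p = 0.0171), TYMS, thymidylate synthase (log2 -0.62 ± 0.10, adjusted p = 0.0132), AURKA, a mitotic kinase (log2 -0.62 ± 0.14, adjusted p = 0.0342), and FOXM1, a factor of mitotic genes (log2 -0.41 ± 0.09, adjusted p = 0.0315, uncorrected -0.26). PCNA, the replication clamp, had 3953, 1322 and 1190 against 1727, 1798 and 1641 counts (log2 0.05 ± 0.22, adjusted p = 0.891), and MKI67, the proliferation marker, had 3112, 1051 and 3874 against 1450, 2268 and 1866 counts (log2 -0.23 ± 0.42, adjusted p = 0.746), both without passing, as for the most abundant member, MYBL2 (-0.22 ± 0.08). For the cell cycle, 4, 3, 1, 1, 1 and 1 rose and 14, 11, 4, 1, 1 and 1 fell in the 6 fits without 1 sample. CDKN1C kept the corrected call in each fit without 1 sample. CDC25A, TYMS, AURKA and FOXM1 lost it without 1 or more of MHCC97L replicate 3 and MHCC97L-OXA replicates 1, 2 and 3 (adjusted p from 0.0519 to 0.169).

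Some genes of the integrated stress response rose. Of 34 tested genes of this and the unfolded protein response, edgeR called none before correction (10 at an unadjusted p under 0.05). After it 8 rose and 0 fell, with a median of 0.37 (0.14 before). ATF4, the factor whose translation rises under stress, had 11983, 17181 and 16489 against 25613, 27796 and 27975 counts (log2 0.53 ± 0.09, adjusted p = 0.0144, uncorrected 0.82), and its target CHAC1, which breaks down glutathione, had 86, 165 and 175 against 470, 488 and 486 counts (log2 1.41 ± 0.15, adjusted p = 0.00417). TRIB3 (0.81 ± 0.11) and ASNS, asparagine synthetase (0.69 ± 0.16, uncorrected 0.46), rose as well. Among chaperones of the endoplasmic reticulum, HSPA5 had 16208, 3753 and 4026 against 4966, 5046 and 4339 counts (log2 -0.11 ± 0.26, adjusted p = 0.81), and CALR, the most abundant member, had 36141, 55329 and 50426 against 46842, 44126 and 47540 counts (log2 -0.30 ± 0.09, adjusted p = 0.0707), and neither passed. Of the stress genes, 10, 13, 7, 2, 1 and 2 rose and 1, 2, 0, 0, 0 and 0 fell in the 6 fits without 1 sample. CHAC1 kept the corrected call in each fit without 1 sample. ATF4, TRIB3 and ASNS lost it without 1 or more of MHCC97L replicate 3 and MHCC97L-OXA replicates 1, 2 and 3 (adjusted p from 0.0509 to 0.169).

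Stem and tumor-initiating cell markers had 14 tested members of 28, and edgeR called none before correction (5 at an unadjusted p under 0.05), and after it 1 rose and 2 fell, with a median of 0.04 before and -0.12 after. SOX9 rose (38, 57 and 46 to 148, 145 and 123 counts, log2 1.55 ± 0.24, adjusted p = 0.0111), and CD24 (log2 -0.64 ± 0.08, adjusted p = 0.00622) and THY1 (log2 -0.60 ± 0.10, adjusted p = 0.0155) fell. POU5F1, which encodes OCT4, had no count in any of the 6 samples. For these markers, 4, 3, 1, 0, 0 and 0 rose and 2, 2, 2, 0, 0 and 0 fell in the 6 fits without 1 sample. Of 19 tested tetraspanins, edgeR called none before correction (4 at an unadjusted p under 0.05), and after it 3 rose and 1 fell, with a median of 0.17. CD63, the most abundant, did not pass (log2 0.27 ± 0.09, adjusted p = 0.114). Among tetraspanins, 3, 5, 1, 0, 0 and 0 rose and 3, 1, 0, 0, 0 and 0 fell in the 6 fits without 1 sample. SOX9, CD24 and THY1 lost the corrected call without 1 or more of MHCC97L-OXA replicates 1, 2 and 3 (adjusted p from 0.0541 to 0.107).

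**Figure D5:**
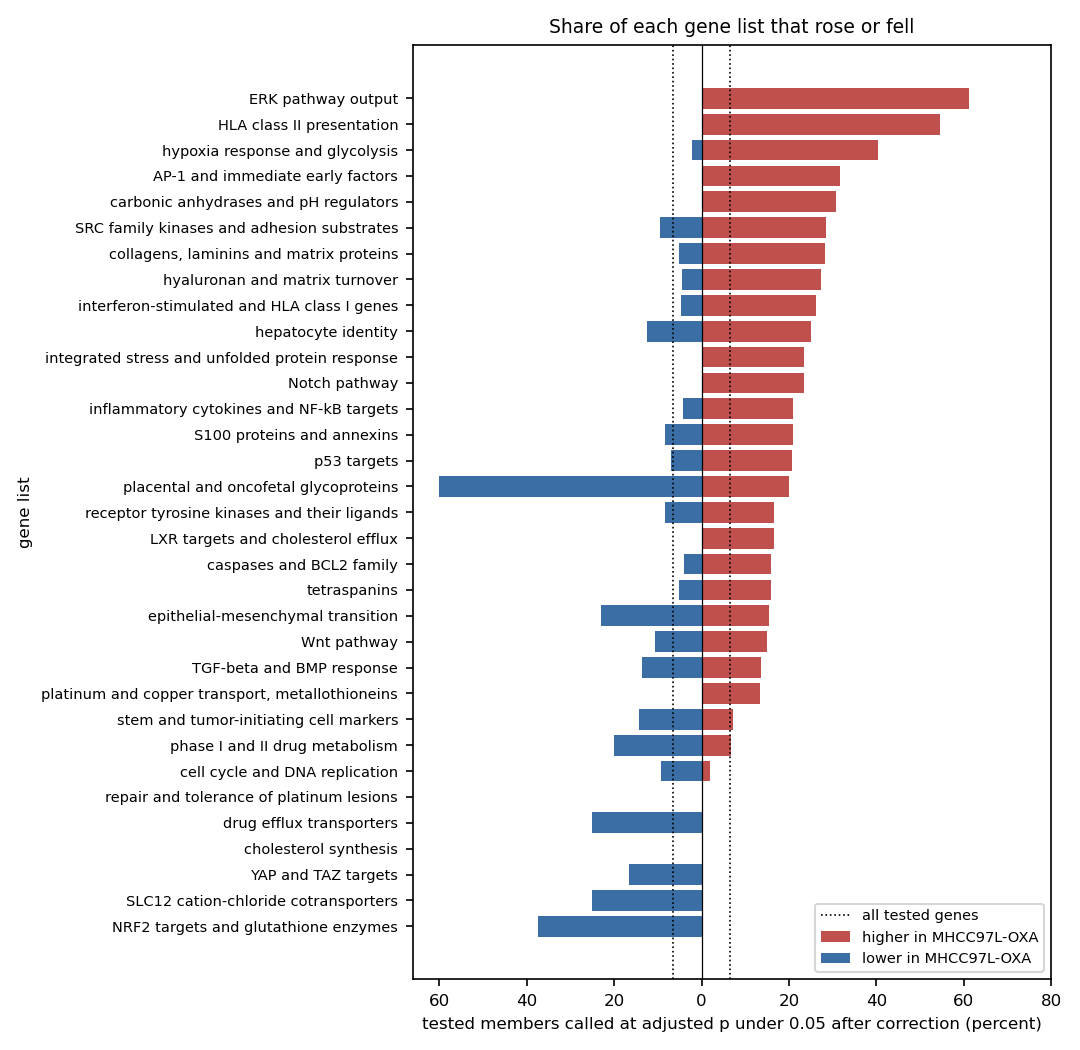
Percent of tested members of each gene list that rose (to the right) and fell (to the left) in MHCC97L-OXA after correction for GC content and length. Dotted lines mark all tested genes (6.51% rose and 6.45% fell). Far from them are the hypoxia (19 rises of 47), ERK (11 of 18) and NRF2 (15 falls of 40) lists. So are the small HLA class II (6 rises of 11) and placental (3 falls of 5) lists, but there the filter favors genes high in a single line. The repair (0 of 44) and cholesterol synthesis (0 of 25) lists had no call.

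Over all 33 lists, 764 tested genes held 45 calls before correction (36 higher and 9 lower) and 204 after it (137 higher and 67 lower). Over all tested genes, 0.953% were called before correction and 12.95% after it. The lists were chosen with earlier results of these data known, so a larger share in them is not a test. In the 12 lists without a call before correction (295 genes), 85 genes had an unadjusted p under 0.05, DESeq2 called 35 and limma voom 73. The lists were also set beside the KEGG annotation in the count table, in which 172 pathways had at least 30 tested genes and no word such as cancer, infection or resistance in their names. Some disease pathways thus remained. The shares called higher were largest in Hematopoietic cell lineage (15 of 36, 2 lower), Viral myocarditis (15 of 37, 3 lower), Complement and coagulation cascades (12 of 37, 0 lower), ECM-receptor interaction (16 of 50, 1 lower) and Antigen processing and presentation (14 of 46, 4 lower). HLA genes are members of several of these, and some HLA genes passed the filter only through the resistant samples. Over all tested genes, 6.51% were called higher and 6.45% lower. The shares called lower were largest in Proteasome (9 of 42, 0 higher), Arginine and proline metabolism (8 of 38, 5 higher), Glutathione metabolism (8 of 38, 2 higher), RNA polymerase (5 of 31, 1 higher) and Spliceosome (20 of 130, 1 higher). Genes called in both tests outside the lists included PTGS1, a cyclooxygenase, with 114, 131 and 127 against 1028, 937 and 887 counts (log2 2.97 ± 0.17, adjusted p = 0.00105), SOCS3, an inhibitor of cytokine signals, with 973, 1471 and 1429 against 4380, 4221 and 3886 counts (log2 1.44 ± 0.09, adjusted p = 0.00105), and STC2, a secreted glycoprotein, with 1764, 1565 and 1557 against 4705, 5131 and 4697 counts (log2 1.58 ± 0.09, adjusted p = 0.00105). Falls of this kind were MYL9, a myosin light chain, with 5438, 9015 and 9720 against 2278, 2315 and 2518 counts (log2 -2.00 ± 0.11, adjusted p = 0.00105), and VIPR1, a neuropeptide receptor, with 167, 182 and 235 against 29, 28 and 21 counts (log2 -3.03 ± 0.24, adjusted p = 0.00217). PTGS1, SOCS3, STC2, MYL9 and VIPR1 kept the corrected call in each fit without 1 sample.

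Markers of cell identity were read last. The 8 genes taken as markers of the comparison, CA9, CASP14, CD74, CEMIP, TREM1, BNIP3, ETV5 and ALPP, were called in both tests, 7 higher and 1 lower, but were chosen with earlier results of these data known. Of the 42 genes of hepatocyte identity 8 were tested, of which 2 rose and 1 fell, and 1 rise and 1 fall were called before correction. The median was 0.07 (0.12 before). SERPINA1, alpha-1 antitrypsin, had 1, 1 and 1 against 31, 14 and 14 counts, a ratio of 19.7 (6.42 to 98.3), the fall was PDZK1, and ASS1, of the urea cycle and the most abundant member, had 9944, 15390 and 16083 against 23033, 23160 and 23643 counts (log2 0.45 ± 0.08, adjusted p = 0.018, uncorrected 0.74). CPS1, also of the urea cycle, did not pass (log2 -0.18 ± 0.34, adjusted p = 0.755). In this list, 2, 2, 2, 1, 1 and 1 rose and 1, 1, 1, 0, 1 and 1 fell in the 6 fits without 1 sample. In the shorter list of 15 hepatocyte markers, ALB, AFP, APOB, TTR, AHSG, FGA and FGB had no count in any sample, 2 genes were tested and 1 (SERPINA1) rose, and the summed CPM was 1.05, 1.24 and 1.07 in MHCC97L and 2.64, 1.98 and 1.47 in MHCC97L-OXA. The samples are labelled as hepatoma carcinoma cells of liver, and these defining genes of hepatocytes were thus absent from both lines. SERPINA1 passed the filter only through the resistant samples and PDZK1 only through the parental ones, so the filter favors their rise and fall. SERPINA1 kept the corrected call in each fit without 1 sample. ASS1 lost it without 1 or more of MHCC97L-OXA replicates 1, 2 and 3 (adjusted p from 0.0949 to 0.117).

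Of 18 leukocyte markers 4 were tested, of which 2 rose and 1 fell, and 1 was called before correction. Summed CPM was 56.2, 93.3 and 95.7 in MHCC97L and 161, 157 and 161 in MHCC97L-OXA. Most of it was CD68, a lysosomal protein, with 862, 1309 and 1428 against 2607, 2608 and 2602 counts (log2 0.83 ± 0.10, adjusted p = 0.00624). CD14 had 16, 18 and 20 against 91, 79 and 87 counts (log2 1.90 ± 0.25, adjusted p = 0.00684), CSF1R fell (log2 -0.79 ± 0.16, adjusted p = 0.0237), and the defining markers PTPRC, CD3E, MS4A1, NKG7, LYZ, CD163, AIF1 and TYROBP had no count in any sample. Of 9 fibroblast markers 6 were tested and 1, THY1, fell, and summed CPM was 565, 773 and 768 in MHCC97L and 569, 574 and 581 in MHCC97L-OXA, most of it THY1. Before correction edgeR called none of them. Of 7 endothelial markers 2 were tested and 1, CDH5, fell. Summed CPM was 2.41, 2.78 and 2.26 in MHCC97L and 1.46, 1.70 and 1.81 in MHCC97L-OXA, most of it PECAM1, with KDR, CLDN5 and EMCN at 0. Of 5 epithelial markers 3 were tested and all 3 fell after correction, none before. Their summed CPM of 3112, 5870 and 6069 in MHCC97L and 3153, 2944 and 3225 in MHCC97L-OXA was led by KRT8. In RNA from whole cultures, fewer cells that express a gene and less RNA per cell cannot be told apart. The part of these marker lists in the other results was not tested. CD14 kept the corrected call in each fit without 1 sample. CD68 and CSF1R lost it without 1 or more of MHCC97L replicate 3 and MHCC97L-OXA replicates 1, 2 and 3 (adjusted p from 0.0511 to 0.137).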

How the data were processed

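The authors made the deposited counts with Trimmomatic 0.36, HISAT2 2.2.1.0 and GRCh38.p12, per the submitters' processing notes, which give neither the order nor the role of these. The counting program and strand setting are not given in the sources used, though the library kit is stranded. FPKM was calculated by the authors, by a program not given, from the same samples, and was used here for levels per length and for 3 alternative tests. The saracatinib line was left out.

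Counts were tested with edgeR 4.0.16 (quasi-likelihood test, TMM normalization) in R 4.3.3. For the correction, each sample's deviation in log2 CPM (prior count 2) was fitted with natural splines of GC content and log2 gene length (5 degrees of freedom each), and the fitted values were used as offsets. GC content and length came from GENCODE release 29, matched to 19474 of 20030 genes. The SE is the log2 fold change over the root of the F statistic. Ratios of low counts have 95% Clopper-Pearson intervals scaled by TMM library sizes, and a line at 0 was set to 3 counts per sample. Promoters were RefSeq promoters. The alternatives used DESeq2 1.42.0 and limma 3.58.1, with other filters, scalings, splines and samples left out. The code of the fits was run on simulated data as a check, and no error rate of the calls is given from it. Tables and figures were made in Python 3.11.15 with pandas 2.3.3, numpy 2.4.6, SciPy 1.17.1 and matplotlib 3.10.9.

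The 33 gene lists and 5 marker lists, and their members, were chosen with earlier results of these data known. Genes named were the given markers, the 10 largest rises and 10 largest falls called in both tests with at least 10 counts in every sample of the higher line, members of a list called in both tests (up to 6 per direction, by p), genes whose proteins the study blotted, and the receptor, master regulator and most abundant member that define a list. Other genes named were chosen after their values were seen. Some genes that the rule names are not reported here. KEGG pathways needed at least 30 tested genes.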

Additional observations from a re-analysis of the deposited data

How the results depend on the processing

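The number of genes changed depended on tool, sample and correction. Before correction, edgeR called 115 genes, DESeq2 893 (571 higher, 322 lower) and limma voom with sample quality weights 2225 (1107 higher, 1118 lower), while limma-trend on log2 FPKM called 252 with 1 added, 256 with 0.1 added and 242 with 1 added and no filter. Leaving out 1 sample gave from 2 to 2705 genes. After correction, edgeR called 1555, DESeq2 2804 (1300 higher, 1504 lower), voom with sample quality weights 3177 (1418 higher, 1759 lower, an alternative chosen after seeing the data) and a correction fitted within each line 3666 (1580 higher, 2086 lower). Leaving out 1 sample gave from 203 to 2557.

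With the replicate number as a replicate block, the corrected test called 601 genes (351 higher, 250 lower). The labels give samples of the same number nothing else in common. Their deviations from the line means correlated at -0.217, -0.136 and 0.447 for numbers 1, 2 and 3 before correction (mean of different numbers -0.0167) and at -0.102, -0.0666 and 0.454 after it (mean -0.0477), so number 3 alone deviated together, and the block was not used elsewhere.

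The alternatives were read for the genes named here and for some genes that are not reported. Of these genes, 79 were called before correction. All 948 of their values under the alternatives kept their direction and 329 lost the call. Of those called after correction (238), 596 of 3332 values lost the call and 1 turned, GPX4, at 0.10 under the correction fitted within each line. Of genes not called, 72 of 2819 values before correction and 60 of 1063 after it had the other direction, and 534 and 94 gained a call. Leaving out 1 sample moved the uncorrected log2 fold change of HSPA5 from -0.997 to 0.34, of MCL1 from -0.45 to 0.86 and of PCNA from -0.56 to 0.50, the lowest without MHCC97L replicate 3 and the highest without MHCC97L replicate 1, and the cause was not tested.

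With 3 samples per line, differences in genes of few counts can be missed, and the number of reads counted bounds what can be called absent. A trend with GC content shared by all samples of a line cannot be told apart from a difference between lines.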
